A study of Mus musculus with 9 samples.

Results

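The genes that build cholesterol and fatty acids were followed across untreated, TGF-β1-treated and SIS3-pretreated mouse natural killer (NK) cells. The set was a list of 33 gene symbols that covers the mevalonate pathway, the steps from squalene to cholesterol, the SREBP control system, 2 sterol-handling proteins, and the synthesis, desaturation and elongation of fatty acids. All 33 were found, among 16876 genes in the table, and all 33 passed the filter on low counts, with 12212 genes tested in all. The lowest expected count of a member in any library was 120, for Tm7sf2.

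All groups share the culture of C57BL/6 femur marrow cells into NK cells, made with 4 cytokines over 4 days (1 ng/mL of IL-7, 10 ng/mL of Flt3L, 30 ng/mL of SCF and 50 ng/mL of IL-15). A second step of a week used 50 ng/mL of IL-15 with 20 ng/mL of IL-2. Ctrl cells (n = 3) had no further agent. TGFb cells (n = 3) were exposed to 5 ng/mL of TGF-β1 over 3 h. SIS3_TGFb cells (n = 3) had the same TGF-β1 exposure after 3 h in 10 µM of SIS3, which blocks the TGF-β signal transducer Smad3. The titles of these last libraries mention SIS3 only, and the treatment text and the series design add TGF-β1. The 9 libraries held no group with SIS3 and no TGF-β1, and no group labelled as a solvent control. An effect of SIS3 that does not depend on TGF-β1 thus cannot be told apart from one that does. Whether replicates come from different mice or cultures is not stated in the labels, and the p-values therefore rest on the spread among libraries of a group, which may be technical.

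Cholesterol synthesis starts from acetyl-CoA, passes through mevalonate and isoprenoid units to squalene, and ends after a long series of ring modifications. Fatty acid synthesis uses the same acetyl-CoA, which Acly and Acss2 supply, and the enzymes Acaca and Fasn turn it into palmitate. Most of these genes are targets of the SREBP transcription factors (encoded by Srebf1 and Srebf2), which the escort protein Scap carries out of the endoplasmic reticulum when sterols are scarce and which Insig1 holds back when they are plentiful. In activated NK cells this programme is known to supply membranes and to support metabolism and effector function.

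Promoter windows from RefSeq (GRCm38.p6, 250 bases before to 50 after a transcription start) were matched by Entrez number for 26 of the 33 genes, with 32 windows in all. Unmatched were Fdps, Fdft1, Sqle, Stard4, Scd1, Scd2 and Fads1. The windows of Hmgcs1 (chr13:119690101-119690400, plus strand), Fasn (chr11:120824498-120824797, minus strand), Hsd17b7 (chr1:169969156-169969455, minus strand) and Insig1 (chr5:28071162-28071461, plus strand) are shown because, of the genes with a window, these had the smallest p in SIS3_TGFb versus TGFb within their branch, for the 4 branches where that p was smallest. Each is written 5′ to 3′ along the gene, and capitals mark matches to the motifs named after the sequences, some of which overlap.
Hmgcs1: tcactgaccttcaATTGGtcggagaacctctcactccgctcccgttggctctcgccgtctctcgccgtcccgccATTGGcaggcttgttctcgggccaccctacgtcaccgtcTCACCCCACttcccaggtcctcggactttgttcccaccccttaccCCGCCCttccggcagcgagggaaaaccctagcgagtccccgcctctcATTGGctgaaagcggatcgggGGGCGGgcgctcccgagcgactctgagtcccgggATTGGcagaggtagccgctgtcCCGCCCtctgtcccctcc
Fasn: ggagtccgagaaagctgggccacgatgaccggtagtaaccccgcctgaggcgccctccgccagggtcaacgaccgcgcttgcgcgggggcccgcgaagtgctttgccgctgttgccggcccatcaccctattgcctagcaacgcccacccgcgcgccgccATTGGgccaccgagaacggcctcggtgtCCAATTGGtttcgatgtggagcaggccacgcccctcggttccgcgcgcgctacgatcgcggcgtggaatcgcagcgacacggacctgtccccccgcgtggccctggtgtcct
Hsd17b7: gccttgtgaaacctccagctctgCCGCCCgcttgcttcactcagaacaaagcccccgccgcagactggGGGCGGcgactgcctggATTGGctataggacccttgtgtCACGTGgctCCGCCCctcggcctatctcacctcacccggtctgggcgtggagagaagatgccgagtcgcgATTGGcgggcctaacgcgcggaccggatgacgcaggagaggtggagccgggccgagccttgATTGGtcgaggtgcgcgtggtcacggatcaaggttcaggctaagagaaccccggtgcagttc
Insig1: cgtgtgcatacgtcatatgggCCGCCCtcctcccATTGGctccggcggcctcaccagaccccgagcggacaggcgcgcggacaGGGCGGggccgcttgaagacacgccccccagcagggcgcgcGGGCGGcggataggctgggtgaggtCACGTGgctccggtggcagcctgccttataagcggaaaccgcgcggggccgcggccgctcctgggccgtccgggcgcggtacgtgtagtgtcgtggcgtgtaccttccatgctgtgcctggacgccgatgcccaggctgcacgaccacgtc

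The motifs were searched on both strands, so some capitals are their reverse complements. A CCAAT box (the site of NF-Y, a factor that works beside SREBP) stood in 21 of the 26 genes with a window (80.8%) and in 43.1% of the 9816 tested genes with a window. Counted by window, it was in 68.8% of the 32 windows of members, in 37.8% of the windows of tested genes and in 37.4% of all 32851 RefSeq windows. All 9 matched genes of the squalene to cholesterol steps held one. Fasn held 3 matches, of which a pair overlap on opposite strands, and Hmgcs1 held 4. The Fasn window lies wholly within the annotated gene (120805958 to 120825166), downstream of its outermost 5′ end. Its matches are thus not those of the sequence before that end. A GC box (GGGCGG, the site of Sp1) was in 84.6% of the matched members and 68% of tested genes with a window. Counted by window, it was in 78.1% of member windows, 61.6% of windows of tested genes and 35.7% of all RefSeq windows. An E-box (CACGTG) was in 19.2% of the matched members and 11.8% of tested genes with a window. Its shares by window were 18.8%, 9.96% and 7.15%, in the same order. The SREBP motif TCACNCCAC was in 1 member, Hmgcs1, with its first base at -137 from the start, against 1.3% of tested genes and 1.24% of all windows. Its shorter core TCACNCCA, which overlaps it and was added after the first search was seen, was also in Msmo1 and Srebf2 (3 of 26, 11.5%, against 4.49% of tested genes and 4.36% of all windows). The median GC content was 62.5% in member windows and 60.7% in windows of tested genes. These are matches of letters in short windows and do not show binding.

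**Figure D1:**
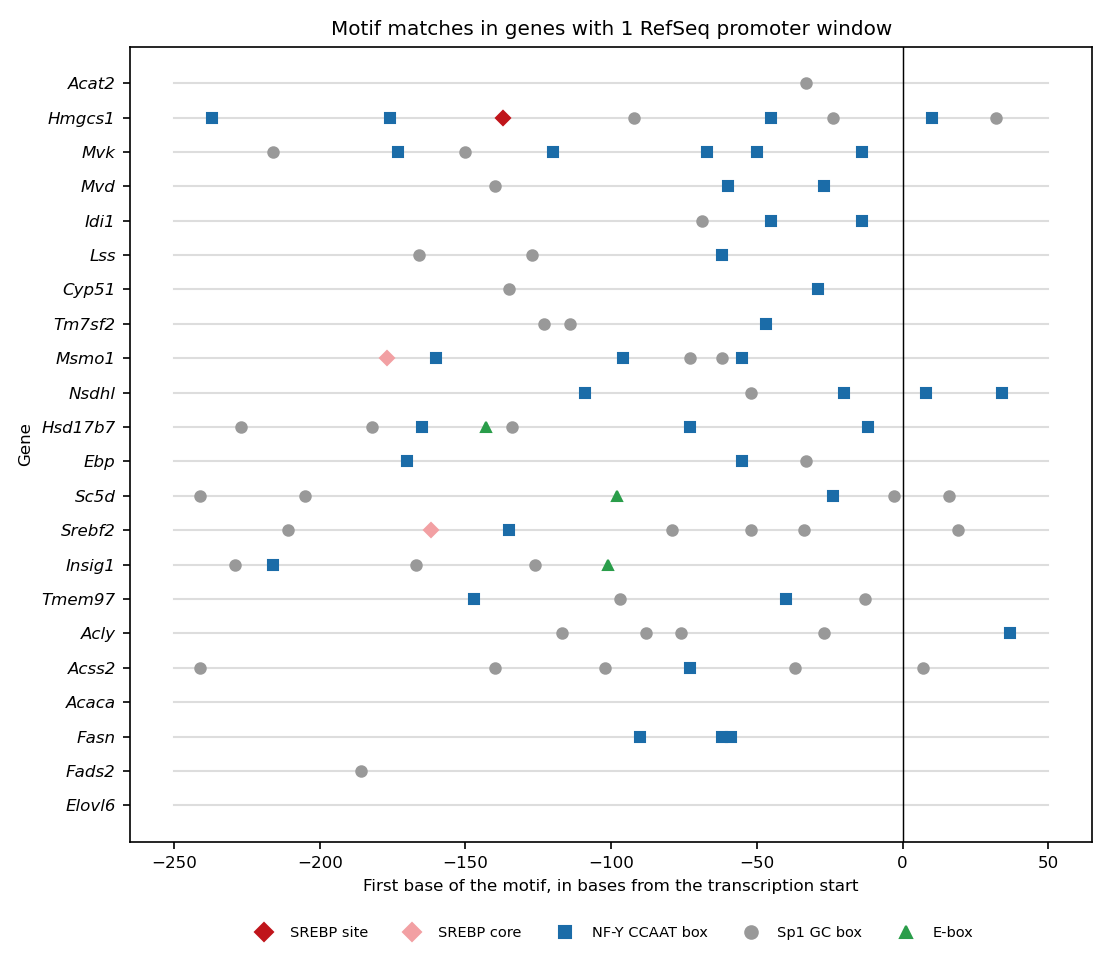
Motif matches in the 22 genes with 1 RefSeq promoter window each. The x axis is the position of the motif's first base in bases from the transcription start (at 0), each grey line is a window from 250 bases before to 50 after it, and symbols stand for motifs on either strand. CCAAT boxes (blue squares) occur on most lines, and the full SREBP motif (dark red) appears only on that of Hmgcs1, at -137.

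The libraries held between 15714973 and 16718673 expected counts, with TMM scaling factors of 0.956 to 1.05. The first principal component (53.6% of the variance) separated the groups, and TGFb replicate 3 stood apart from its group on the second (19.2%). That library also had the lowest macrophage marker sum of all 9 (784 CPM), and its median deviation from the group mean over the 33 genes was 0.066 on the log2 scale. SIS3_TGFb replicate 3 differed from its group too, with a chi-square per degree of freedom of 4.18 and 4.7 against the other libraries and 1.62 between those, Lyz2 at 882 CPM against 521 and 563, Cd74 at 533 against 291 and 317, and a median deviation of -0.047. The summed level of 8 NK markers was 15700 to 16700 CPM (counts scaled to library size) in Ctrl, 11400 to 12600 in TGFb and 13000 to 13300 in SIS3_TGFb. Most of that sum is Gzmb and Prf1, and its members differed in direction: from TGFb to SIS3_TGFb the level of Gzmb went from 5380 to 5970 up to 7110 to 7580 CPM, and that of Ncr1 from 38.3 to 40.5 up to 75.8 to 78.4, while Eomes went from 515 to 520 down to 361 to 375, Klrd1 from 94.5 to 95.4 down to 62.9 to 65.4 and Nkg7 from 452 to 475 down to 403 to 422. The 8 macrophage and monocyte markers summed to 1380 to 1680, 784 to 1120 and 841 to 1290 CPM, none at 0 in every library. Within that list Lyz2 overlapped between groups (657 to 892, 452 to 733 and 521 to 882 CPM) and Ccr2 did not between Ctrl and TGFb (522 to 544 against 170 to 203 CPM). The 6 dendritic cell markers summed to 356 to 703 CPM over all libraries, the 6 mast cell and basophil markers to 448 to 523, and the 6 neutrophil markers, nearly all from Ctsg, to 220 to 298. Within the mast cell and basophil list Kit was at 167 to 192 CPM in Ctrl and 238 to 273 in SIS3_TGFb, Mcpt8 at 238 to 257 and 169 to 197, and Cpa3 at 28.3 to 30.3 and 12.4 to 14. TGFb replicate 3 had Prss34 at 3.46 CPM (21 to 38.2 in the other libraries) and Gata2 at 0.466 (3.6 to 8.03 in the others). T cell markers (4 of 5 in the table) stayed at or below 17.1 CPM, and B cell, erythroid and stromal or fat cell markers at or below 1.05, 0.466 and 0.581 CPM. The part of these other transcripts in the changes described here was not tested. In bulk RNA, fewer cells of a type and less RNA per cell cannot be told apart.

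Per kilobase of exon (lengths merged from the GENCODE M21 basic annotation), Scd2, a stearoyl-CoA desaturase that makes monounsaturated fatty acids, had the highest level of the set in every group, at 375 ± 7.41 CPM per kilobase in Ctrl (SD, n = 3). Hmgcs1 (173 ± 6.18), Fdps (98.9 ± 1.05), Srebf2 (85.4 ± 4.1), Acly (70.7 ± 1.56) and Msmo1 (69 ± 1.69) followed in Ctrl, and Acly and Msmo1 differed by about 1 SD. The lowest were Elovl6 (4.34 ± 0.577) and Fads1 (4.24 ± 0.318), which also overlapped. In SIS3_TGFb the level of Hmgcs1 per kilobase (51.7 ± 2.74) was below those of Fdps (78.5 ± 3.15) and Srebf2 (68.6 ± 3.25). Summed over the 33 genes, the CPM was 5637 ± 93.4 in Ctrl, 5389 ± 212 in TGFb and 4291 ± 121 in SIS3_TGFb. Scd2 alone made up 35.7% to 41.1% of that sum, and without it the sums were 3597 ± 87.9, 3334 ± 143 and 2539 ± 79.6 CPM.

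Cells given SIS3 before TGF-β1 had lower levels of most of the 33 genes than cells given TGF-β1 alone. In SIS3_TGFb versus TGFb, 29 of the 33 genes fell (87.9%), where 20.6% of all tested genes fell, and 2 rose (6.06%), where 21.2% of all tested genes rose. The median log2 change of the set was -0.29, beside 0.012 for all genes tested. Called in either direction were 93.9% of the set and 41.8% of all genes. The set was chosen with earlier results of these data known, so its shares are not a test of the set. For 30 of the 33 genes no library of one group lay within the range of the other, which held for 51.4% of all genes. A fall of at least 0.5 on the log2 scale was called for 6 of the 33 and for 2.47% of all genes. Both rises of the set were smaller than 0.5, a size that 7.31% of all genes reached as rises. The test was edgeR's quasi-likelihood test with Benjamini-Hochberg adjustment over all 12212 genes, and rose and fell are used for genes with an adjusted p below 0.05. Of the 29 falls, 23 held under each of 17 alternative settings. Without scaling factors 23 fell and 2 rose, when 71.1% of the calls among all genes were rises, against 50.6% with TMM factors. Without TGFb replicate 3, 27 fell, and without SIS3_TGFb replicate 3, 25 fell.

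With TGF-β1 alone, the share of the set that fell was above that of all genes, and the share that rose was near that of all genes. In TGFb versus Ctrl 10 of the 33 fell (30.3%), where 16.4% of all tested genes fell, and 6 rose (18.2%), where 17.9% of all tested genes rose, with a median of -0.08 beside -0.004 for all genes. That median was -0.04 without TGFb replicate 1 and -0.12 with upper-quartile factors. Called in either direction were 48.5% of the set and 34.3% of all genes, and libraries did not overlap for 19 of the 33, against 45% of all genes. A change of at least 0.5 was called for 1 gene that rose, Scap (7.3% of all genes), and 1 that fell, Hmgcs1 (4.23% of all genes). With upper-quartile factors 15 fell and 5 rose, which puts the rises at 25% of the calls in the set against 37.5% with TMM factors, and among all genes at 41.3% against 52.2%. Without TGFb replicate 3, 12 fell and 5 rose. In SIS3_TGFb versus Ctrl 24 fell (72.7%), where 24.9% of all tested genes fell, and 3 rose (9.09%), where 29% of all tested genes rose, with a median of -0.32 beside 0.02 for all genes and no overlap for 27 of 33 against 61.1% of all genes. Called in either direction were 81.8% of the set and 53.9% of all genes. A fall of at least 0.5 was called for 8 members and 7.08% of all genes, and a rise of that size for Scap and 13.7% of all genes. Without scaling factors 22 fell and 4 rose, and among all genes the rises were 63.8% of the calls against 53.8%. The comparisons share libraries, so their changes are given side by side and are not set against each other in a test.

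**Figure D2:**
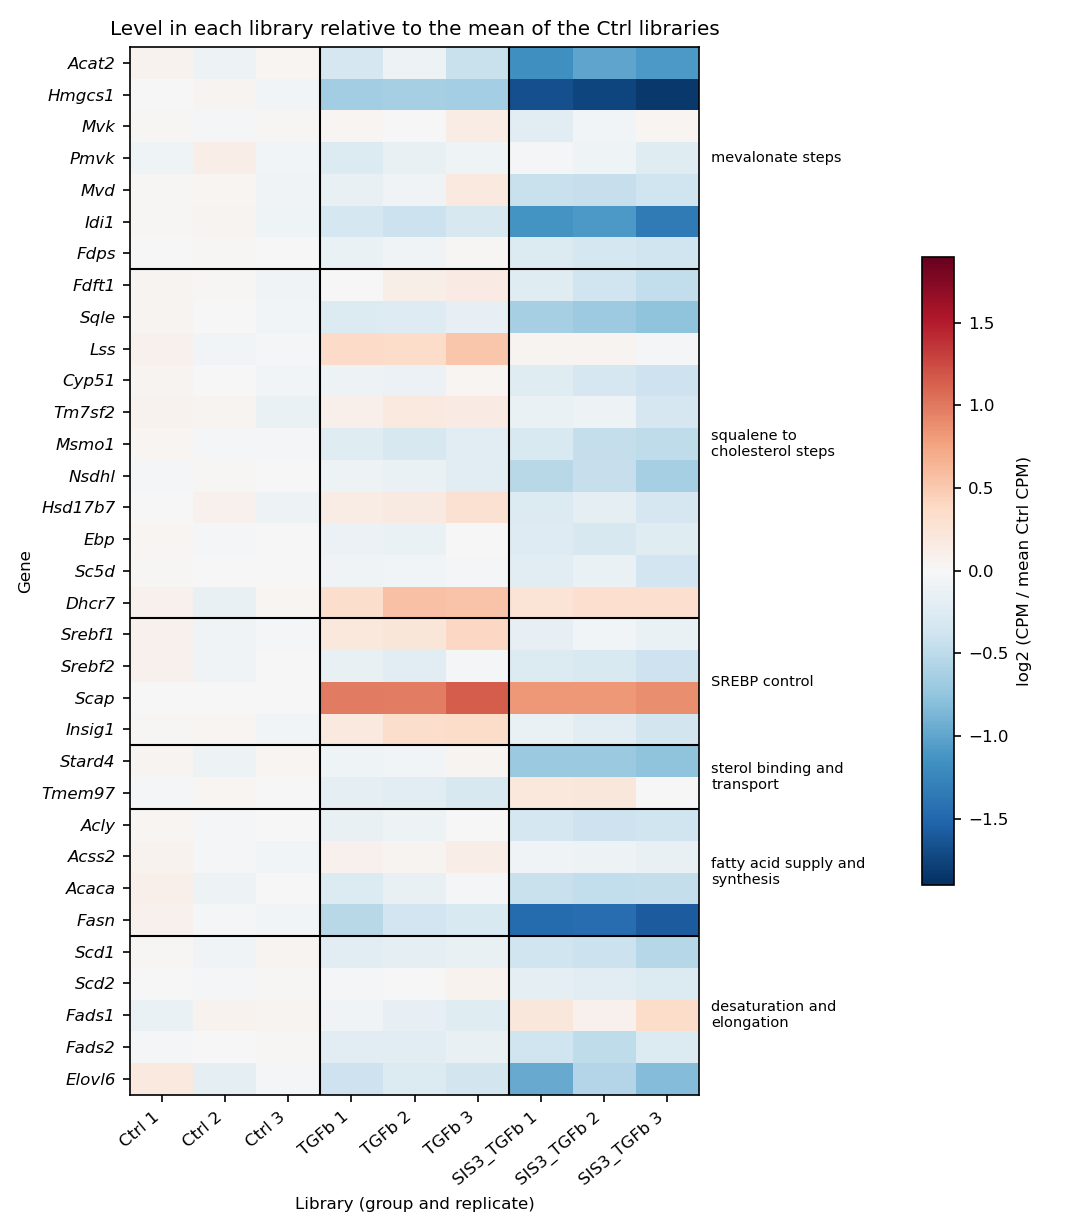
Level of each of the 33 genes (rows, grouped by role) in each of the 9 libraries (columns), as log2 of CPM over the mean CPM of the Ctrl libraries. Blue is below and red above the Ctrl mean. The SIS3_TGFb columns are blue in most rows, darkest for Hmgcs1 and Fasn, while Scap is red in all TGFb and SIS3_TGFb libraries.

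The mevalonate steps held some of the largest falls. Hmgcs1 is the cytosolic synthase of HMG-CoA, from which mevalonate is made (Entrez 208715, chromosome 13, 119690351 to 119708260 in GRCm38.p6). Its CPM was 605, 625 and 582 in Ctrl, 382, 392 and 387 in TGFb, and 189, 181 and 170 in SIS3_TGFb. The 3 groups did not overlap, and the levels stepped down from Ctrl to TGFb to SIS3_TGFb. The log2 change was -0.64 ± 0.04 (SE) in TGFb versus Ctrl, -1.1 ± 0.042 in SIS3_TGFb versus TGFb (edgeR adjusted p = 2.6e-11) and -1.75 ± 0.042 in SIS3_TGFb versus Ctrl. Only 34 of 12212 genes had a lower log2 change than Hmgcs1 in SIS3_TGFb versus TGFb.

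Idi1, the isomerase that converts the product of mevalonate into its reactive form, stood at 155, 157 and 143 CPM in Ctrl, 120, 115 and 123 in TGFb, and 69.5, 71 and 60.1 in SIS3_TGFb, again with no overlap between groups. Idi1 fell in all 3 comparisons (-0.35 ± 0.054, -0.83 ± 0.057 and -1.18 ± 0.057, in the order used for Hmgcs1). Acat2, the cytosolic thiolase that joins acetyl-CoA units, stood at 20.4, 18.2 and 20.1 CPM in Ctrl, 15.6, 18.2 and 14.6 in TGFb, and 8.68, 9.76 and 9.17 in SIS3_TGFb. Its Ctrl and TGFb libraries overlapped, and both lay above every SIS3_TGFb library. It fell by 0.81 (SE 0.098) in SIS3_TGFb versus TGFb and by 1.09 (SE 0.095) in SIS3_TGFb versus Ctrl. Its fall in TGFb versus Ctrl (-0.28 ± 0.089, edgeR adjusted p = 0.024) did not pass without Ctrl replicate 1 (0.087), Ctrl replicate 3 (0.081), TGFb replicate 1 (0.083) or TGFb replicate 3 (0.089), or in DESeq2 (0.066).

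The other mevalonate genes changed less. Mvd, the decarboxylase, was at 67.8 ± 2.46 CPM in Ctrl and 67.7 ± 8.16 in TGFb, with TGFb replicate 3 highest at 76.9, and fell to 50.9 ± 0.964 in SIS3_TGFb (-0.41 ± 0.067 against either other group). Fdps, which makes farnesyl diphosphate for sterols and for protein prenylation, went from 143 ± 1.43 in Ctrl and 137 ± 6.77 in TGFb to 114 ± 4.33 CPM in SIS3_TGFb (-0.27 ± 0.042 against TGFb, -0.33 ± 0.042 against Ctrl). The 2 kinases of this branch did not pass in any comparison. Mvk had log2 changes of 0.05 ± 0.081, -0.13 ± 0.081 and -0.07 ± 0.081, and Pmvk of -0.16 ± 0.075, 0.05 ± 0.075 and -0.11 ± 0.074, each in the order TGFb versus Ctrl, SIS3_TGFb versus TGFb and SIS3_TGFb versus Ctrl. Pmvk passed as a fall in TGFb versus Ctrl with upper-quartile factors (-0.21, edgeR adjusted p = 0.046).

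**Figure D3:**
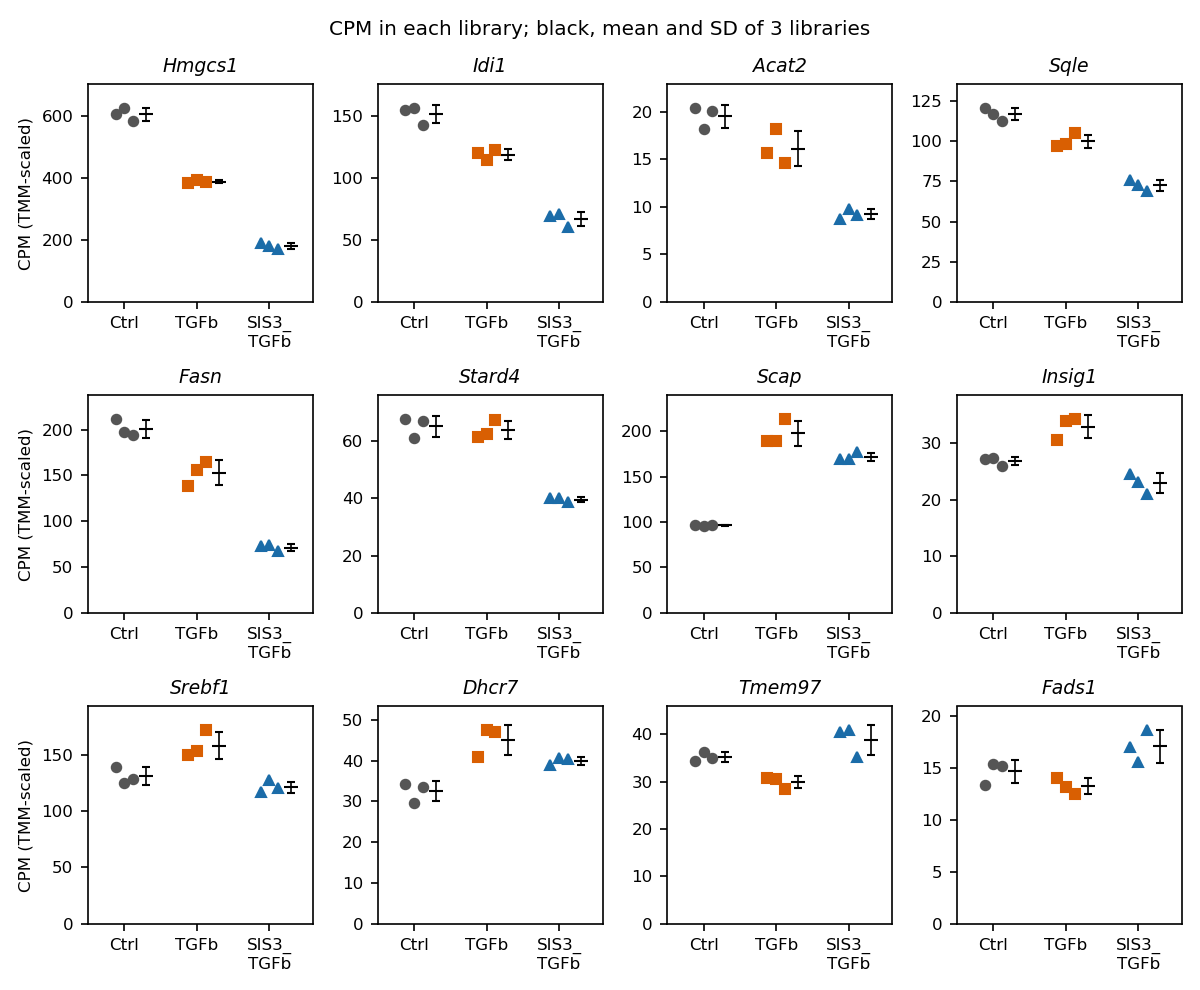
CPM in each library for 12 of the genes, with groups on the x axis and TMM-scaled CPM on a linear y axis from 0. Points are libraries, and black bars are the mean and SD of 3 libraries. Hmgcs1, Idi1, Sqle and Fasn step down across the groups without overlap, Scap is near 96 CPM in Ctrl and at 170 to 214 in the other libraries, and Tmem97 and Fads1 are highest in SIS3_TGFb, where Tmem97 replicate 3 overlaps Ctrl.

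In SIS3_TGFb versus TGFb, all 11 genes from squalene to cholesterol fell (100%, beside 20.6% of all genes). The falls were by 0.16 to 0.47 on the log2 scale. Libraries of this branch overlapped only for Msmo1, so 90.9% did not overlap, beside 51.4% of all genes. Sqle, the squalene epoxidase and a control point of the pathway, stood at 121, 117 and 113 CPM in Ctrl, 97.3, 98.4 and 105 in TGFb, and 75.7, 72.8 and 68.9 in SIS3_TGFb. Its groups did not overlap, and it fell in each comparison (-0.22 ± 0.045, -0.47 ± 0.046 and -0.69 ± 0.045). Nsdhl, which removes carboxyl groups from the sterol ring, stood at 36.5, 37.7 and 36.8 CPM in Ctrl, 34.7, 33.9 and 32 in TGFb, and 25.7, 27.3 and 23.8 in SIS3_TGFb. Its TGFb libraries lay below Ctrl with a change that did not pass (-0.14 ± 0.06, edgeR adjusted p = 0.083, but 0.024 with upper-quartile factors), and it fell by 0.39 (SE 0.062) against TGFb and by 0.53 (SE 0.061) against Ctrl. Fdft1, the squalene synthase, fell from 89.4 ± 4.72 in TGFb to 65.7 ± 5.38 CPM (-0.44 ± 0.058). Cyp51, which demethylates lanosterol, fell from 173 ± 9.69 to 145 ± 8.25 CPM (-0.26 ± 0.049). Both also fell against Ctrl (-0.35 ± 0.058 and -0.31 ± 0.049).

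A trio of sterol enzymes rose with TGF-β1 while most called members fell. These were 3 of the 11 genes of this branch (27.3%, beside 17.9% of all genes). Called as falls were 2 of the 11 (18.2%, beside 16.4%). Lss, which folds squalene epoxide into the first sterol, stood at 71.5, 65.3 and 66.1 CPM in Ctrl, 87, 86.3 and 97.1 in TGFb, and 70.1, 69.8 and 66.8 in SIS3_TGFb. The TGFb libraries were the highest, and those of Ctrl and SIS3_TGFb overlapped. Lss rose by 0.41 ± 0.052 in TGFb versus Ctrl, fell by 0.39 (SE 0.052) in SIS3_TGFb versus TGFb, and was at 0.03 ± 0.053 in SIS3_TGFb versus Ctrl. Hsd17b7, a reductase of ring ketones, stood at 43.7, 45.8 and 40.8 CPM in Ctrl, 47.8, 48.9 and 53.1 in TGFb, and 36.4, 38.2 and 34.7 in SIS3_TGFb, with no overlap and the SIS3_TGFb libraries lowest. Its rise with TGF-β1 (0.2 ± 0.059, edgeR adjusted p = 0.016) did not pass without Ctrl replicate 3 (0.084) or TGFb replicate 3 (0.072), or with upper-quartile factors (0.052). It fell by 0.45 (SE 0.06) against TGFb and by 0.25 (SE 0.061) against Ctrl. Dhcr7, the reductase of the last step, stood at 34.3, 29.6 and 33.5 CPM in Ctrl, 41, 47.6 and 47.1 in TGFb, and 38.9, 40.7 and 40.5 in SIS3_TGFb, so all treated libraries were above Ctrl. It rose by 0.48 ± 0.068 with TGF-β1 and stayed above Ctrl with SIS3 (0.3 ± 0.069). Its fall against TGFb (-0.18 ± 0.066, edgeR adjusted p = 0.045) was close to the threshold and did not pass under 9 of 17 alternatives. Those were without Ctrl replicate 3 (0.052), TGFb replicate 2 (0.16), TGFb replicate 3 (0.12), SIS3_TGFb replicate 1 (0.14), replicate 2 (0.071) or replicate 3 (0.067), DESeq2 (0.066), no scaling factors (0.29) and the replicate block (0.064).

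The remaining enzymes of this branch had small changes. Msmo1, the oxidase of sterol methyl groups, fell from 141 ± 3.76 CPM in Ctrl to 119 ± 3.96 in TGFb (-0.25 ± 0.048) and to 106 ± 7.64 in SIS3_TGFb (-0.16 ± 0.048 against TGFb). That last call (edgeR adjusted p = 0.015) did not pass without SIS3_TGFb replicate 2 (0.067), without SIS3_TGFb replicate 3 (0.065) or without scaling factors (0.19). Ebp, a sterol isomerase, fell by 0.18 (SE 0.05) against TGFb, which did not pass without scaling factors (0.11), and by 0.26 (SE 0.049) against Ctrl. Sc5d, a sterol desaturase, fell by 0.18 (SE 0.051) against TGFb, which did not pass without SIS3_TGFb replicate 3 (0.052) or without scaling factors (0.13), and by 0.23 (SE 0.051) against Ctrl. Tm7sf2, a sterol reductase and the gene of the set with the fewest counts, fell by 0.33 (SE 0.11) against TGFb. That call (edgeR adjusted p = 0.023) did not pass without TGFb replicate 2 (0.062), without SIS3_TGFb replicate 3 (0.09), in DESeq2 (0.075) or without scaling factors (0.074).

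Among the SREBP control genes, Scap roughly doubled with TGF-β1. Scap, the escort that carries SREBP out of the endoplasmic reticulum (Entrez 235623, chromosome 9, 110333288 to 110384949), stood at 96.8, 95.4 and 96.3 CPM in Ctrl, 190, 189 and 214 in TGFb, and 170, 170 and 177 in SIS3_TGFb. Every treated library was above every Ctrl library, and the SIS3_TGFb libraries were all below those of TGFb. It rose 2.05-fold in TGFb versus Ctrl (1.04 ± 0.046, edgeR adjusted p = 5.5e-11), fell by 0.2 (SE 0.044) in SIS3_TGFb versus TGFb, and stayed 1.79-fold above Ctrl with SIS3 (0.84 ± 0.046). In TGFb versus Ctrl, 96.9% of all tested genes had a lower log2 change. It was the member with the largest rise in TGFb versus Ctrl and in SIS3_TGFb versus Ctrl.

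Insig1, which retains Scap in the endoplasmic reticulum and is itself an SREBP target, stood at 27.1, 27.4 and 25.9 CPM in Ctrl, 30.5, 33.9 and 34.3 in TGFb, and 24.6, 23.2 and 21 in SIS3_TGFb. Its groups did not overlap, with TGFb highest and SIS3_TGFb lowest. It rose by 0.3 ± 0.069 with TGF-β1 and fell by 0.52 (SE 0.069) in SIS3_TGFb versus TGFb. Its fall against Ctrl (-0.22 ± 0.071, edgeR adjusted p = 0.015) did not pass without SIS3_TGFb replicate 3 (0.074) or without scaling factors (0.054). Srebf1, whose products drive fatty acid genes above all, stood at 139, 125 and 128 CPM in Ctrl, 150, 153 and 172 in TGFb, and 117, 127 and 120 in SIS3_TGFb. The TGFb libraries were above all others, and those of Ctrl and SIS3_TGFb overlapped. Srebf1 rose by 0.28 ± 0.054, fell by 0.39 (SE 0.054), and was at -0.11 ± 0.055 in SIS3_TGFb versus Ctrl. That last value did not pass (edgeR adjusted p = 0.11), but it did with upper-quartile factors (0.038), in a fit of those groups alone (0.033) and without TGFb replicate 3 (0.045).

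Srebf2, whose product drives cholesterol genes above all, was at 433 ± 20.5 CPM in Ctrl, 398 ± 24 in TGFb and 348 ± 16.5 in SIS3_TGFb. It fell by 0.19 (SE 0.049) against TGFb and by 0.32 (SE 0.049) against Ctrl. Its change with TGF-β1 (-0.12 ± 0.049, edgeR adjusted p = 0.068) overlapped between the groups and passed as a fall under 7 of 17 alternatives, among them those without Ctrl replicate 2 (0.047), TGFb replicate 3 (0.0089) or SIS3_TGFb replicate 3 (0.049).

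The 2 sterol-handling genes went opposite ways in SIS3_TGFb versus TGFb. Stard4, a carrier of cholesterol between membranes, stood at 67.9, 61.1 and 67 CPM in Ctrl, 61.4, 62.7 and 67.6 in TGFb, and 40.2, 40 and 38.6 in SIS3_TGFb. Ctrl and TGFb overlapped, and all SIS3_TGFb libraries were far below both. Its log2 change was -0.03 ± 0.052 with TGF-β1, and it fell by 0.69 (SE 0.054) against TGFb and by 0.72 (SE 0.054) against Ctrl. Tmem97, a membrane protein of the endoplasmic reticulum that responds to sterol supply, stood at 34.3, 36.2 and 35.1 CPM in Ctrl, 30.8, 30.5 and 28.4 in TGFb, and 40.5, 41 and 35.3 in SIS3_TGFb. The TGFb libraries were the lowest, and SIS3_TGFb replicate 3 lay within the Ctrl range. Tmem97 fell by 0.23 (SE 0.066) with TGF-β1 and rose by 0.38 ± 0.065 in SIS3_TGFb versus TGFb. Against Ctrl its 0.15 ± 0.063 did not pass (edgeR adjusted p = 0.064), but did without SIS3_TGFb replicate 3 (0.0074) and without scaling factors (0.014).

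**Figure D4:**
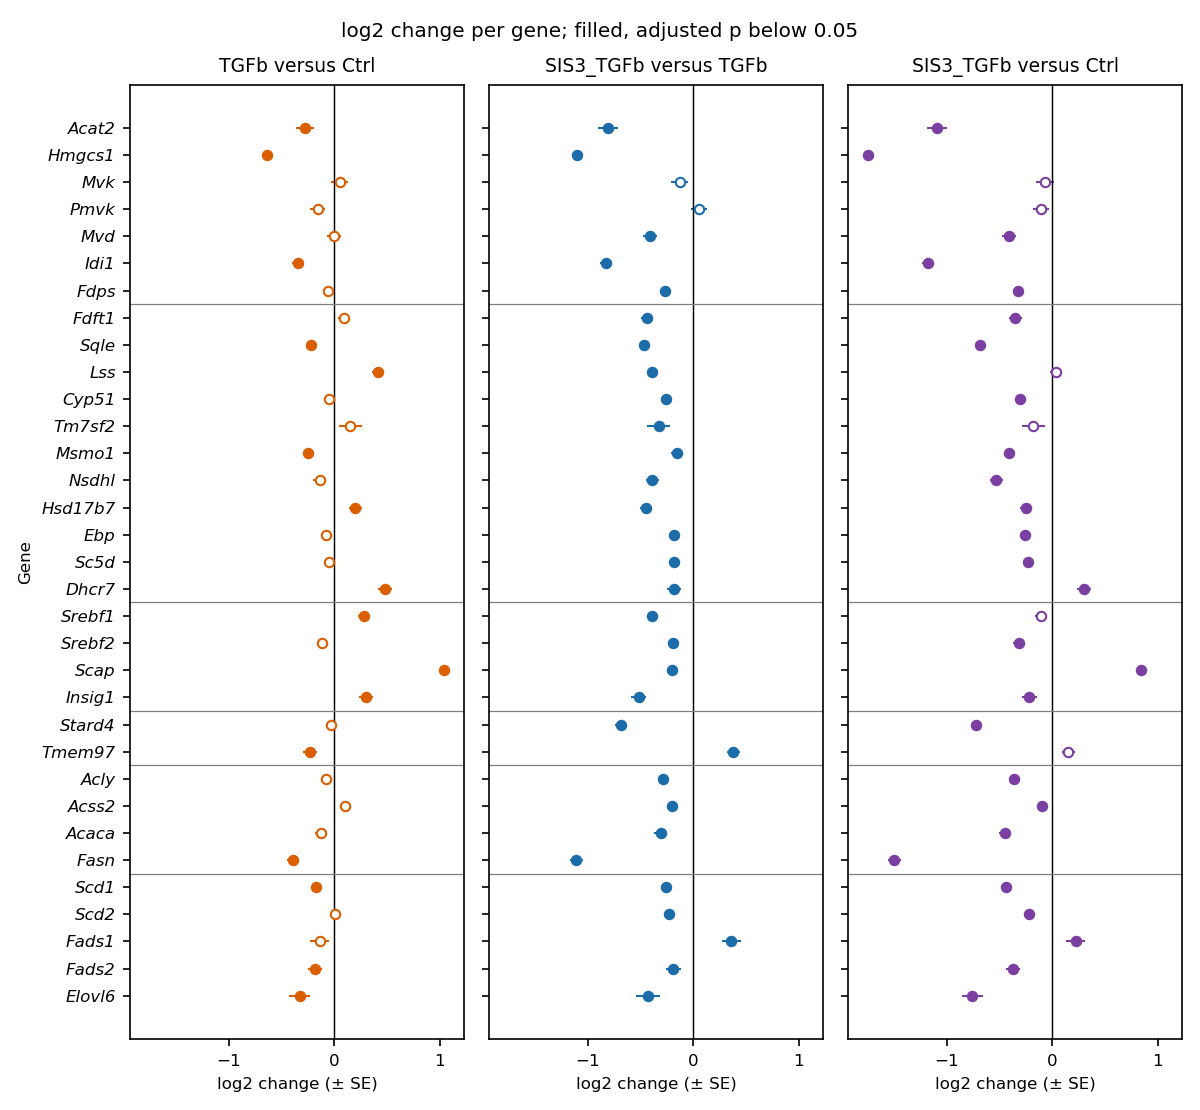
log2 change (x axis) of each gene (rows, grouped by role as in the heat map) in 3 comparisons, with bars of 1 SE. Filled points passed at an adjusted p below 0.05. In SIS3_TGFb versus TGFb 29 filled points lie left of 0 and those of Tmem97 and Fads1 lie right of it.

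Fatty acid synthesis was led by Fasn, the synthase itself (Entrez 14104, chromosome 11, 120805958 to 120825166). It stood at 212, 197 and 194 CPM in Ctrl, 139, 156 and 165 in TGFb, and 72.8, 73.6 and 66.9 in SIS3_TGFb. The groups did not overlap, and the SIS3_TGFb libraries were lowest. Fasn fell by 0.39 (SE 0.057) with TGF-β1, by 1.11 (SE 0.061) in SIS3_TGFb versus TGFb (edgeR adjusted p = 1.5e-09) and by 1.5 (SE 0.06) in SIS3_TGFb versus Ctrl. In SIS3_TGFb versus TGFb this was a fall by 53.6%, the largest of the set beside that of Hmgcs1 (53.5%).

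The enzymes that feed Fasn fell less. Acly, which splits citrate into acetyl-CoA, was at 326 ± 7.02 CPM in Ctrl, 309 ± 17.3 in TGFb and 253 ± 5.52 in SIS3_TGFb (-0.29 ± 0.041 against TGFb). Acaca, which makes malonyl-CoA, was at 96.9 ± 6.48, 88.3 ± 7.32 and 71.1 ± 0.895 CPM (-0.31 ± 0.059 against TGFb). Both also fell against Ctrl (-0.36 ± 0.041 and -0.45 ± 0.058). Neither passed in TGFb versus Ctrl (edgeR adjusted p = 0.18 and 0.085), where both passed without TGFb replicate 3 (0.019 and 0.0088) and with upper-quartile factors (0.039 and 0.024), and Acaca also without Ctrl replicate 2 (0.04). Both passed there without scaling factors too (0.042 and 0.033). Acss2, which makes acetyl-CoA from acetate, was at 116 ± 4.36, 123 ± 3.64 and 108 ± 3.25 CPM and fell by 0.2 (SE 0.04) against TGFb. In TGFb versus Ctrl it was at 0.1 ± 0.04 (edgeR adjusted p = 0.083, and 0.038 without Ctrl replicate 1). Its fall against Ctrl (-0.1 ± 0.041, edgeR adjusted p = 0.049) was at the threshold and did not pass under 11 of 17 alternatives. Those took in the fits without Ctrl replicate 1 (0.2), Ctrl replicate 2 (0.059), TGFb replicate 1 (0.056), TGFb replicate 2 (0.051), SIS3_TGFb replicate 2 (0.1) or SIS3_TGFb replicate 3 (0.15), and the replicate block (0.058).

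Of the desaturases and the elongase, 4 of 5 fell in SIS3_TGFb versus TGFb (80%, beside 20.6% of all genes). The other, Fads1, rose (20%, beside 21.2% of all genes). Elovl6, which lengthens palmitate, stood at 30.4, 23.4 and 26 CPM in Ctrl, 20.2, 22.3 and 20.8 in TGFb, and 13.7, 18.1 and 15.1 in SIS3_TGFb. Its groups did not overlap, and it fell by 0.43 (SE 0.11) against TGFb and by 0.76 (SE 0.1) against Ctrl. Its fall with TGF-β1 (-0.33 ± 0.1, edgeR adjusted p = 0.018) did not pass without Ctrl replicate 1 (0.11) or TGFb replicate 1 (0.067). Scd1 was at 124 ± 4.95, 110 ± 2.46 and 91.6 ± 5.4 CPM and fell in each comparison (-0.17 ± 0.046, -0.26 ± 0.046 and -0.44 ± 0.046). Its close paralog Scd2 was at 2040 ± 40.7 CPM in Ctrl, 2050 ± 69 in TGFb and 1750 ± 41.6 in SIS3_TGFb, with 0.01 ± 0.036 in TGFb versus Ctrl and falls by 0.23 (SE 0.036) against TGFb and by 0.22 (SE 0.036) against Ctrl.

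Fads1 and Fads2 introduce double bonds in polyunsaturated fatty acids and lie near each other on chromosome 19 (10182877 to 10196874 and 10062765 to 10101503). Fads1 stood at 13.4, 15.4 and 15.2 CPM in Ctrl, 14, 13.2 and 12.5 in TGFb, and 17, 15.6 and 18.7 in SIS3_TGFb, where it was highest. It rose by 0.36 ± 0.09 in SIS3_TGFb versus TGFb and was at -0.14 ± 0.092 with TGF-β1. Its rise against Ctrl (0.22 ± 0.088, edgeR adjusted p = 0.047) did not pass under 14 of 17 alternatives. It did not pass without Ctrl replicate 1 (0.19), replicate 2 (0.052) or replicate 3 (0.062), TGFb replicate 1 (0.053) or replicate 2 (0.059), or SIS3_TGFb replicate 1 (0.088) or replicate 3 (0.21), or with the replicate block (0.069). Fads2 was at 25.2 ± 0.54, 22.2 ± 0.522 and 19.4 ± 1.45 CPM and fell against Ctrl with SIS3 (-0.37 ± 0.067). Its changes of -0.18 ± 0.066 with TGF-β1 (edgeR adjusted p = 0.043) and -0.19 ± 0.068 in SIS3_TGFb versus TGFb (0.035) each did not pass under 8 of 17 alternatives. In TGFb versus Ctrl these took in the fits without any 1 of the Ctrl replicates (0.059, 0.091 and 0.12 for replicates 1, 2 and 3), without TGFb replicate 1 (0.1) or replicate 2 (0.12), and without SIS3_TGFb replicate 1 (0.059). In SIS3_TGFb versus TGFb they took in those without TGFb replicate 1 (0.062), replicate 2 (0.055) or replicate 3 (0.088), and without SIS3_TGFb replicate 1 (0.09) or replicate 2 (0.15).

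**Figure D5:**
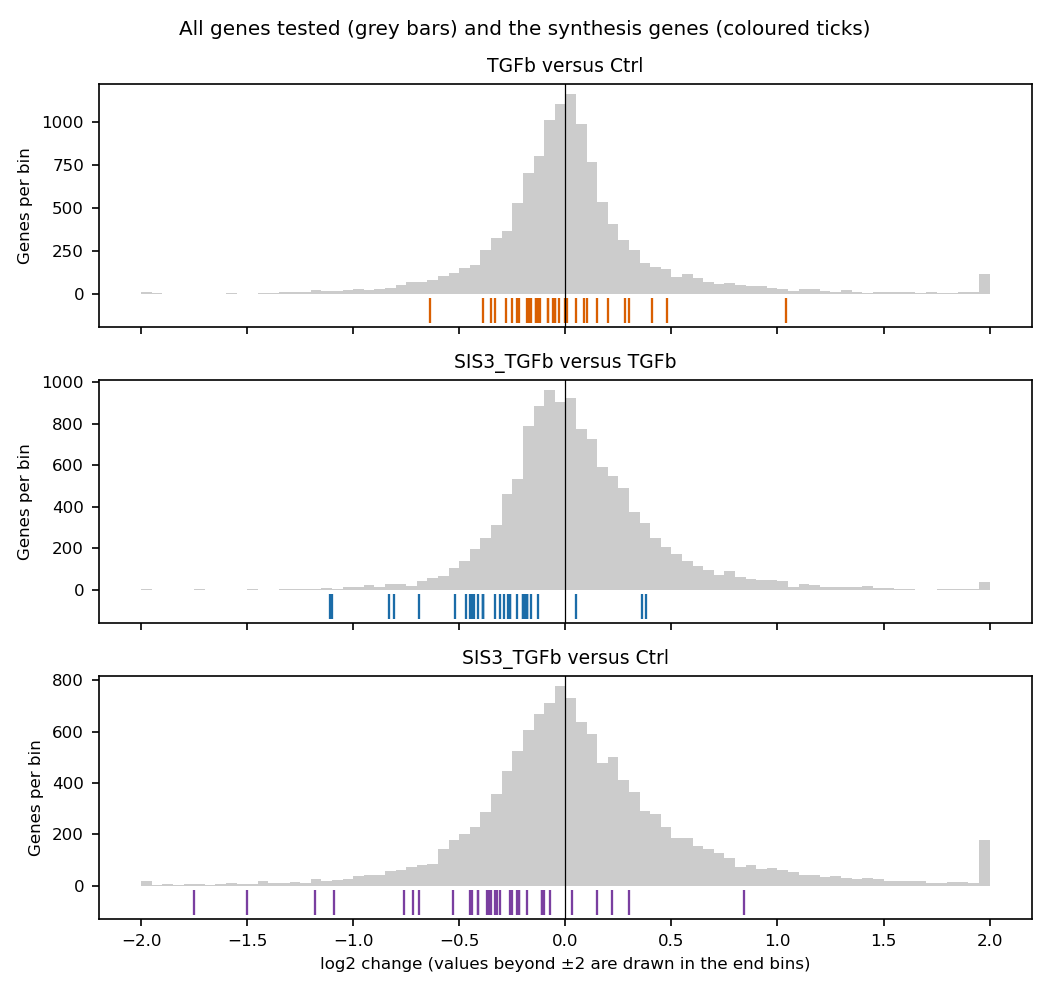
Histograms of the log2 change of all 12212 genes tested (grey, genes per bin of 0.05) in 3 comparisons, with a coloured tick for each of the 33 synthesis genes. In SIS3_TGFb versus TGFb 30 of the 33 ticks lie below 0, and in TGFb versus Ctrl the ticks lie on both sides.

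Further genes of the pathways were taken from lists that hold none of the 33. Of 15 further sterol and isoprenoid enzymes, 6 fell in TGFb versus Ctrl (40%, beside 16.4% of all genes), 6 in SIS3_TGFb versus TGFb (40%, beside 20.6%) and 8 in SIS3_TGFb versus Ctrl (53.3%, beside 24.9%). Nus1, a subunit of the dolichol-making enzyme, fell by 0.26 (SE 0.042) with TGF-β1. Of 27 further enzymes of fatty acid and lipid synthesis 25 were tested. With TGF-β1 10 rose and 3 fell (40% and 12%, beside 17.9% and 16.4% of all genes). Between SIS3_TGFb and TGFb, 5 rose and 5 fell (20% each, near the 21.2% and 20.6% of all genes), with a median of -0.01. In SIS3_TGFb versus Ctrl 10 rose and 5 fell (40% and 20%, beside 29% and 24.9%). Dgat2, which makes triacylglycerol, stood at 7.95, 5.73 and 5.9 CPM in Ctrl, 13.7, 14.2 and 14.1 in TGFb, and 25.3, 27.1 and 24.9 in SIS3_TGFb. Dgat2 rose by 1.1 ± 0.11 in TGFb versus Ctrl and by 0.88 ± 0.089 in SIS3_TGFb versus TGFb, with no overlap between groups. Dgat1, with the same activity, rose by 0.84 ± 0.08 in SIS3_TGFb versus TGFb, while Me1, which makes NADPH for synthesis, fell by 0.81 (SE 0.1). The elongase Elovl7 rose from 1.85, 1.28 and 1.26 CPM in TGFb to 6.62, 8.43 and 6.56 in SIS3_TGFb (2.29 ± 0.19).

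Genes of sterol storage, SREBP processing and sterol export were mixed. Of 11 genes of sterol storage and lysosomal export 2 rose and 1 fell with TGF-β1 (18.2% and 9.09%, beside 17.9% and 16.4% of all genes). Against TGFb, 4 rose and 5 fell in SIS3_TGFb (36.4% and 45.5%, beside 21.2% and 20.6%), and in SIS3_TGFb versus Ctrl 4 rose and 4 fell (36.4% each, beside 29% and 24.9%). Soat2, which esterifies cholesterol, stood at 10.7, 10.4 and 10.4 CPM in Ctrl, 12.1, 11.5 and 11.6 in TGFb, and 42.1, 42.4 and 39.7 in SIS3_TGFb. The SIS3_TGFb libraries stood far above all others, and the rise against TGFb was 1.82 ± 0.063 (edgeR adjusted p = 1e-11). Gramd1a, which carries sterol from the plasma membrane to the endoplasmic reticulum, rose by 0.94 ± 0.034 with TGF-β1. Of 18 genes of SREBP processing and turnover 17 were tested. With TGF-β1 4 rose and 5 fell (23.5% and 29.4%, beside 17.9% and 16.4% of all genes), in SIS3_TGFb versus TGFb 2 rose and 8 fell (11.8% and 47.1%, beside 21.2% and 20.6%), and in SIS3_TGFb versus Ctrl 6 rose and 9 fell (35.3% and 52.9%, beside 29% and 24.9%). Rnf139, a ubiquitin ligase of the endoplasmic reticulum, rose by 0.93 ± 0.04 with TGF-β1 and fell by 0.23 (SE 0.038) in SIS3_TGFb versus TGFb, and Mbtps1, the first protease that cuts SREBP, rose by 0.45 ± 0.05 with TGF-β1. Of 6 genes of the sterol receptor LXR and its targets 4 rose with TGF-β1 (66.7%, beside 17.9% of all genes), among them the exporter Abcg1 (0.87 ± 0.041) and the ubiquitin ligase Mylip (0.53 ± 0.054). Called as falls in SIS3_TGFb versus TGFb were 2 (33.3%, beside 20.6%), the phospholipid-remodelling enzyme Lpcat3 (-0.38 ± 0.054) and Mylip (-0.24 ± 0.052). In SIS3_TGFb versus Ctrl 4 rose and 1 fell (66.7% and 16.7%, beside 29% and 24.9%).

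The counting of some members could share reads with other genes. Expected counts that are not whole numbers, which mark reads split between genes, occurred in 5 members: Acat2, Fdft1, Scd1, Scd2 and Pmvk. In the GENCODE M21 basic annotation, 20.9% of the exon bases of Fdft1 lie within exons of the protease gene Ctsb on the opposite strand, and the sources used here do not say that counting used strand. Ctsb stood at 765 ± 39.6 CPM in Ctrl, 675 ± 63.8 in TGFb and 721 ± 84.2 in SIS3_TGFb and did not pass in any comparison (0.09 ± 0.074 in SIS3_TGFb versus TGFb, where Fdft1 fell). Of the exon bases of Fdps, 77.4% are shared on the same strand with the gene model Gm43738. Opposite-strand models share 18.6% of those of Scap, 16% of Hmgcs1, 10.7% of Idi1 and 8.16% of Lss. None of these models was among the genes tested. Cyp51 shares 4.22% with Akap9 on the opposite strand. Akap9 did not pass in any comparison (-0.01 ± 0.048 in SIS3_TGFb versus TGFb). Srebf1, Acss2, Scd2 and Tm7sf2 share 3.98% or less with any 1 other gene.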

How the data were processed

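Poly-A RNA of 9 libraries (1 µg RNA, 100 bp paired reads, DNBseq) was analysed from 1 table of expected counts per gene that the authors deposited. The unit was read from the values, since 10.2% to 11.1% of each library's values are not whole numbers. Tools listed in the submitters' processing notes are RSEM, Bowtie2, HISAT2, DESeq2, StringTie and Cufflinks, with mm10 and GRCm38 as builds. Their roles and versions, the annotation and any use of strand were not given in the sources used here. Expected counts were rounded, filtered with filterByExpr (minimum count 10, minimum total 15), scaled by TMM, and fitted with 1 mean per group over all 9 libraries by edgeR 4.0.16 in R 4.3.3 (glmQLFit, glmQLFTest, two-sided, Benjamini-Hochberg over 12212 genes). The SE is the log2 change divided by the root of its F statistic. CPM are TMM-scaled, as mean ± SD (n = 3). Alternatives used other scaling factors, no filter, DESeq2 1.42.0, limma 3.58.1 (voom), fits of the groups compared alone, a replicate block, and each library left out. The members and lists were chosen with earlier results of these data known. Every member is described, with values per library where a called log2 change reached 0.5 in size or went against most members, and from each further list up to 3 genes per direction with the smallest p could be named. Replicates of a group differed by more than sampling noise (chi-square per degree of freedom 1.62 to 5.14). Positions and promoters are from RefSeq for GRCm38.p6, and exon lengths from GENCODE M21.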

Additional observations from a re-analysis of the deposited data

How the results depend on the processing

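The counts of members that rose or fell stayed within 1.5 times their reported values under all 17 alternatives. Leaving out each library in turn gave 7 to 12 falls and 5 to 7 rises in TGFb versus Ctrl, 25 to 29 falls and 2 rises in SIS3_TGFb versus TGFb, and 22 to 25 falls and 2 to 3 rises in SIS3_TGFb versus Ctrl. The set's median log2 change moved from -0.29 to -0.2 in SIS3_TGFb versus TGFb and from -0.32 to -0.25 in SIS3_TGFb versus Ctrl without scaling factors. In TGFb versus Ctrl the median of -0.08 ran from -0.11 to -0.04 over the libraries left out. Dropping the scaling factors moved the median of all genes by 0.083 in SIS3_TGFb versus TGFb and 0.06 in SIS3_TGFb versus Ctrl, and no other scaling moved it by more. Changes of sign were seen only for values that had not passed. Over the libraries left out, Mvd in TGFb versus Ctrl ran from -0.11 (without TGFb replicate 3) to 0.06 (without TGFb replicate 1), with 0.01 and 0.02 without Ctrl replicates 1 or 2 and TGFb replicate 2, and Scd2 from -0.02 (without TGFb replicate 3) to 0.03 (without TGFb replicate 1), with -0.01 without Ctrl replicate 2. Scd2 was at -0.01 without scaling factors and -0.03 with upper-quartile factors, and Lss in SIS3_TGFb versus Ctrl at -0.01 with the latter. The cause was not tested. Of the 33 members, 21, 27 and 27 kept their call under every alternative in TGFb versus Ctrl, SIS3_TGFb versus TGFb and SIS3_TGFb versus Ctrl.

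With the replicate number as a block, 10 members fell and 6 rose in TGFb versus Ctrl, 28 and 2 in SIS3_TGFb versus TGFb, and 23 and 2 in SIS3_TGFb versus Ctrl, and 3942, 4803 and 6346 genes were called in all, against 4190, 5104 and 6585 without it. The deviations of same-numbered libraries from their group means correlated at -0.15 to 0.13, and those of differently numbered libraries at -0.16 to 0.15. With 3 libraries per group, these values cannot show whether the numbers pair the samples. The labels do not say that they do, so the main fit had no block. The largest SE of a member in SIS3_TGFb versus TGFb was 0.11, for Tm7sf2, the member with the fewest counts, and for Elovl6, and what sets it was not tested.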
